A study of Mus musculus with 3 samples.

Results

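The genes described here encode the folding machinery of the endoplasmic reticulum (ER) and the unfolded protein response, the signalling system that fits this machinery to its load. They number 35 of the 31510 genes in the deposited tables. They were chosen by name, with earlier results of these data known. Of these, 28 were found by gene symbol and 7 by Ensembl ID. All but Ero1lb, which is 34 of 35, reached at least 1 RPKM in every library, where RPKM is exon reads per kilobase of exon and per 1000000 reads of the library.

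RNA came from blastocysts of CD-1 mice in delayed implantation, a state in which the embryo rests in the uterus until the mother's oestrogen returns. In all 3 groups the mothers, 2 months of age, were ovariectomised on day 4 of pregnancy and given 2 mg of progesterone daily on days 5 to 7. Dormant blastocysts received no estradiol (E2) and were flushed from the uterus on day 8, reactivating blastocysts were taken 6 h after E2 was injected on day 7, and reactivated blastocysts 12 h after it. Each group was 1 library of total RNA from a pool of more than 3000 blastocysts, so that no difference has a replicate check and no p-value or SD can be given. State, hours after E2 and hour of collection changed together and cannot be told apart. In such pooled RNA, fewer cells of a type and less RNA per cell cannot be told apart either.

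Proteins that enter the secretory pathway pass into the ER through the Sec61 channel, are folded by chaperones such as BiP, the product of Hspa5, and gain disulfide bonds from protein disulfide isomerases. Chains that fail to fold are drawn back into the cytosol and degraded, a route called ER-associated degradation. When unfolded chains accumulate, the sensors IRE1 (Ern1), ATF6 (Atf6) and PERK (Eif2ak3) switch on transcription factors that raise chaperone and degradation genes, and PERK also slows protein synthesis. In the mouse blastocyst, the trophectoderm fills the cavity with fluid and the primitive endoderm secretes proteins of the basement membrane.

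The libraries held 9298675 exon reads in the dormant, 10364607 in the reactivating and 12941447 in the reactivated state. All 8 trophectoderm, 6 epiblast and 5 primitive endoderm markers reached 1 RPKM in each library. The summed trophectoderm markers had 1229, 1212 and 951 RPKM in the dormant, reactivating and reactivated libraries, the epiblast markers 160, 211 and 192 RPKM, and the primitive endoderm markers 62.9, 59.5 and 49.0 RPKM. Of 8 uterine epithelium markers 4 reached 1 RPKM throughout, Lif, Msx1, Wfdc2 and Muc1. The sums over the 8 were 107, 101 and 56.5 RPKM, of which Lif, Msx1 and Wfdc2 made up most. Of 7 uterine stroma markers 1, Vim, did so, and the sums were 7.36, 5.5 and 6.13 RPKM. Of 6 immune markers 2 did so, Laptm5 and Cd68, and the sums were 22.3, 15.98 and 6.61 RPKM. Laptm5 made up most of these sums, with 13.7, 11.5 and 4.11 RPKM. The leukocyte marker Ptprc lay between 0.09 and 0.27 RPKM. None of the 5 red blood cell markers reached 1 RPKM, and Hba-a1 and Hba-a2 were at 0 in every library. The part of these shifts in the results below was not tested.

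Most folding genes had a higher level 12 h after E2 than in dormancy, while the sensors Atf6 and Ern1 had a lower one and degradation genes differed in both directions. A difference was counted when it was at least 2 times, that is 1 on the log2 scale after adding 1 RPKM to both values, and when the larger of both levels reached 1 RPKM. In the reactivated library 6 of 34 measured genes passed this rule upwards against the dormant library, namely Hspa5, Pdia3, Dnajb11, Sdf2l1, Creld2 and Manf, and 0 passed it downwards. Of the 12037 genes of any kind measured in that comparison, 5.27% were higher and 7.66% lower, and of the 9948 protein-coding genes 3.63% were higher and 5.53% lower. The median log2 difference was 0.43 over the 34 genes, beside -0.07 over all genes and -0.07 over protein-coding genes. Of the 34 genes, 26 were above 0 and 8 below it, where 45.1% of protein-coding genes were above 0. Atf6 and Ern1, at -0.25 and -0.39, lay between the lower and upper quartiles of protein-coding genes, -0.45 and 0.31.

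At 6 h the levels were closer to dormancy. In the reactivating library 0 of 34 genes passed the rule in either direction against the dormant library, where 2.68% of all 12126 genes measured were higher and 3.07% lower. Among protein-coding genes these shares were 0.683% and 0.291%. The median log2 difference was 0.10, beside 0.06 over all genes. Of the 34 genes, 24 lay above 0, beside 59.8% of protein-coding genes. When the libraries were scaled by their upper quartile instead of by total reads, 18 did so, and the median of all genes was -0.009. Between the reactivated and the reactivating library 3 genes passed upwards, Hspa5, Dnajb11 and Manf (the last not by CPM, exon reads per 1000000 exon reads, where its log2 difference was 0.99), and 0 downwards, while 3.82% of all genes were higher and 7.63% lower, and 2.44% and 6.6% of protein-coding genes. The median of the 34 genes was then 0.35, beside -0.13 over all genes. Upper-quartile scaling moved the median of all genes in that comparison to 0.02 and the median of these genes to 0.50. With it, 680 of all genes were higher and 659 lower, and with median-ratio scaling 625 and 707, in place of 461 and 920. The 3 comparisons share libraries and are not independent.

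With a smaller step of 1.5 times, the reactivated library had 12 of 34 genes higher than the dormant library and 2 lower, Syvn1 and Os9. Among protein-coding genes 12.3% were higher and 18.1% lower by that step. The 6 genes added upwards were Hsp90b1, Calr, P4hb, Pdia4, Ero1l and Dnajb9. Against the reactivating library 12 were higher and 3 lower, with Ern1, Derl3 and Os9 as the lower genes, beside 9.45% and 20.3% of protein-coding genes. At 6 h against dormancy only Sdf2l1 was higher and only Sec61b lower by 1.5 times, beside 4.64% and 2.4% of protein-coding genes.

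**Figure D1:**
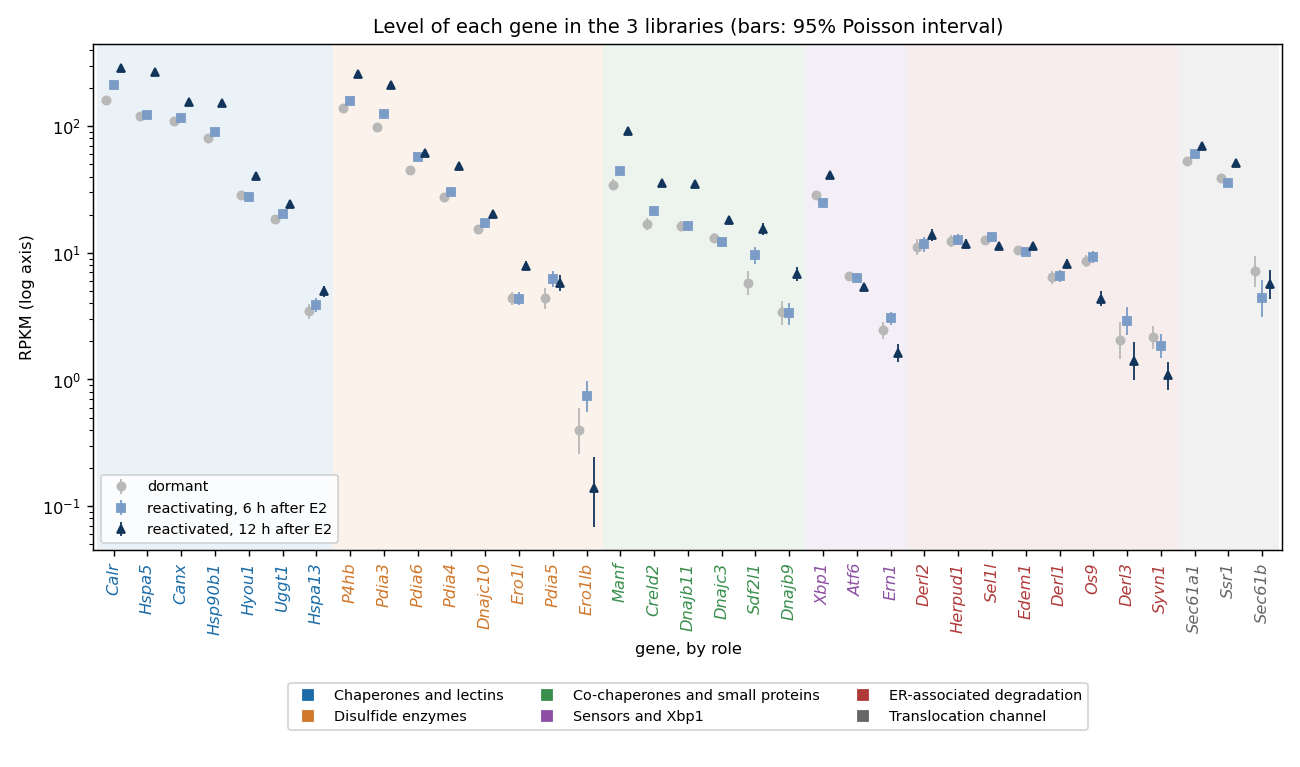
Level of each of the 35 genes in RPKM on a log axis, grouped by role and ordered by reactivated level within a role. Points show 1 library for each state, with the dormant one in grey, the one taken at 6 h in light blue and the one taken at 12 h in dark blue, and bars are 95% Poisson intervals for counting error. In the chaperone, disulfide and co-chaperone groups the reactivated point is the highest for every gene but Pdia5 and Ero1lb, and among the degradation genes it is the lowest for 5 of 8.

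The response elements through which the unfolded protein response acts are short DNA motifs near the start of its target genes, and 6 promoters that carry them are printed to show how unlike the levels of genes with such an element were. Sequences are from RefSeq (GRCm38.p6), 250 bases before to 50 after the annotated start, 5′ to 3′ on the strand of the gene, with the motif's fixed bases in capitals. The windows lie at chr2:34771840-34772139 (plus strand) for Hspa5, chr10:86705395-86705694 (minus) for Hsp90b1, chr15:88819396-88819695 (plus) for Creld2, chr16:22857595-22857894 (plus) for Dnajb11, chr8:94386179-94386478 (plus) for Herpud1 and chr19:6046326-6046625 (plus) for Syvn1.
Hspa5: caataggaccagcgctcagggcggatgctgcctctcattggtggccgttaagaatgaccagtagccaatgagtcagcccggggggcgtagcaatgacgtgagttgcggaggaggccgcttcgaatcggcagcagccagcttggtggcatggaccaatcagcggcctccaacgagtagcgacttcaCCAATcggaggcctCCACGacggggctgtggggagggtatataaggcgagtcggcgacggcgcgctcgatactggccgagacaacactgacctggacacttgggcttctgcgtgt
Hsp90b1: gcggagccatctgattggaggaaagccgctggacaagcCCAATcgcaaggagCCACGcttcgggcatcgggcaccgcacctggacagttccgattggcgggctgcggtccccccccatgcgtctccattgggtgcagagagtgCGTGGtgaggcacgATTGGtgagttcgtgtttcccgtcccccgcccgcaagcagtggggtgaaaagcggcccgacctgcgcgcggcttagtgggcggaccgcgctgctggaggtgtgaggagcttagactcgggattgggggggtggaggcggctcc
Creld2: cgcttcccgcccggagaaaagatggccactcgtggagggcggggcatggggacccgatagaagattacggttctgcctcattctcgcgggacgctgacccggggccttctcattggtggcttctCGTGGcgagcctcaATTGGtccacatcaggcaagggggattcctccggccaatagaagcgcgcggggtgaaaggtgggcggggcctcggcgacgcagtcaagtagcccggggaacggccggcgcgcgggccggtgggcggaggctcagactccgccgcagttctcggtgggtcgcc
Dnajb11: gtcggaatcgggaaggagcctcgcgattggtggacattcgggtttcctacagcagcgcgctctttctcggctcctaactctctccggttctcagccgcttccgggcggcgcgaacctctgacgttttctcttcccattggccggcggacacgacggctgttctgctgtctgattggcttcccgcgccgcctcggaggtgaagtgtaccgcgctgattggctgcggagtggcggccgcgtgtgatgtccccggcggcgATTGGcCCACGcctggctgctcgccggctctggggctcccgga
Herpud1: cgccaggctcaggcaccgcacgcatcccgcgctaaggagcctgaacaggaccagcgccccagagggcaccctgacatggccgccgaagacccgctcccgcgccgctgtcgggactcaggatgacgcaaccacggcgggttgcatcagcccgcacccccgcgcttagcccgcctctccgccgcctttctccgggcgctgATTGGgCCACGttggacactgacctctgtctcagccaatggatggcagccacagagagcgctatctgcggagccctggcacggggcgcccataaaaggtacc
Syvn1: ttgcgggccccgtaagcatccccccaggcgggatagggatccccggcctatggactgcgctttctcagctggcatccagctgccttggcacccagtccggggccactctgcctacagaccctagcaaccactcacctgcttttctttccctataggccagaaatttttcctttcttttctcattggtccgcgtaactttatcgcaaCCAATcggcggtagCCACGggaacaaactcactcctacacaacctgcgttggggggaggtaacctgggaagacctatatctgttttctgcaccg

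The 3 motifs known from work on mammalian ER stress were searched on both strands. The ER stress response element (ERSE) was read as CCAAT, then 9 bases of any kind, then CCACG, the second element (ERSE-II) as ATTGG, 1 base and CCACG, and the unfolded protein response element (UPRE) as TGACGTGG. Promoters were given for 29 of the 35 genes. Of these, 10 held an ERSE (34.5%), against 37 of 27025 genes with a promoter in the table (0.137%). They were Hspa5, Hsp90b1 with 2 copies, Calr, Canx, Pdia6, Ero1lb, Dnajc3, Creld2, Syvn1 and Derl3. ERSE-II was found in 2, Dnajb11 and Herpud1, against 0.0444% of all genes, and UPRE in 0, against 0.714% of all genes. Several of these genes are the ones in which the element was first studied, so the share is not independent of how they were chosen. The centre of the match lay 56 bases before the RefSeq start in Hspa5 and 12 bases after it in Dnajb11. In the GENCODE M21 annotation Hspa5 begins further upstream, so its match falls inside that gene span.

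Genes with the element were found on both sides of dormancy. Against the dormant library, the 9 measured genes with an ERSE had a median log2 difference of 0.49 in the reactivated library, with 7 above 0 and 2 past the rule. The 17 measured genes whose promoter held neither ERSE nor ERSE-II had 0.37, with 13 above 0 and 2 past the rule. Of the ERSE-II genes, Dnajb11 passed it and Herpud1 did not. The 9 genes with an ERSE ran between -0.60 for Syvn1 and 1.14 for Hspa5, and the 2 below 0, Syvn1 and Derl3, had fewer than 100 reads in each library. Only exact matches were counted, so a promoter without one can still hold a near match. A match is a stretch of letters and not a measured binding site, and none of these data show which elements were in use.

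Among chaperones and lectins, the largest level belonged to Calr, which encodes calreticulin, a soluble chaperone that holds sugar-bearing chains. Calr had 160, 212 and 287 RPKM in the dormant, reactivating and reactivated libraries. It was the highest of the 35 genes in each library, and its 3 counting intervals did not overlap. Its ratio was 1.32 (95% interval 1.27 to 1.37) at 6 h and 1.79 (1.73 to 1.86) at 12 h, both against dormancy. These ratios compare exon reads per library total without the added RPKM, and their intervals, exact binomial, cover counting error only.

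Hspa5 encodes BiP, the ER Hsp70 that binds unfolded chains and keeps the stress sensors inactive. Its gene lies at chr2:34771970-34777547 on the plus strand in the GENCODE M21 annotation. It had 121 (117 to 124), 122 (118 to 125) and 266 (262 to 271) RPKM in the dormant, reactivating and reactivated libraries. The first pair of intervals overlapped and the reactivated library stood apart, with a ratio of 1.01 (0.97 to 1.05) at 6 h and 2.21 (2.13 to 2.28) at 12 h against dormancy. In the order of levels among these genes it was the third in the dormant library, behind Calr and P4hb, and the second in the reactivated library, where its interval overlapped that of P4hb at 260 (255 to 265) RPKM.

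The other chaperones changed less. Hsp90b1, which encodes the ER Hsp90 GRP94, had 81.0, 89.5 and 152 RPKM in the dormant, reactivating and reactivated libraries, a log2 difference of 0.90 at 12 h against dormancy. Canx, the membrane-bound partner of calreticulin, had 109, 116 and 154 RPKM. Hyou1, a large Hsp70 relative that exchanges the nucleotide on BiP, had 28.4, 27.4 and 40.2 RPKM. Uggt1 encodes the enzyme that re-tags incompletely folded glycoproteins, and it had 18.5, 20.3 and 24.2 RPKM. Hspa13, another Hsp70 relative, had 3.46, 3.88 and 4.96 RPKM. All 7 chaperones and lectins had their reactivated interval above the dormant one, beside 26% of protein-coding genes. The reactivating interval was above the dormant one in 3, beside 20.2% of protein-coding genes. These shares were not matched for level, and genes with many reads stand apart at smaller differences. Their median log2 difference at 12 h against dormancy was 0.49, with 1 of 7 past the rule.

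Of the exon bases of Hsp90b1, 10.3% overlap a pseudogene on the opposite strand, and the deposited tables count the strands apart. In the search for shared stretches of 50 bases, Hspa5, Canx, P4hb, Pdia3, Dnajb11, Creld2, Manf and Sdf2l1 shared none with another gene. Reads of Sec61b (17.4% of its stretches shared with other genes), Ero1lb (9.26%), Derl1 (5.56%) and Dnajb9 (5.50%) could be split with copies, so their levels are less certain. Hsp90b1 shared 2.96% of its stretches with Gm25745 and Gm15344, which overlap its own exons on the same strand.

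Among the genes of disulfide exchange, Pdia3 passed the rule. Pdia3 encodes ERp57, the isomerase that works with calreticulin and calnexin on glycoproteins, and lies at chr2:121413775-121438687 (plus strand). It had 98.3 (94.6 to 102), 125 (121 to 129) and 212 (207 to 216) RPKM in the dormant, reactivating and reactivated libraries. The level stepped up at both times with no overlap between libraries, with ratios of 1.27 (1.21 to 1.33) at 6 h and 2.15 (2.06 to 2.25) at 12 h against dormancy. P4hb, the classical protein disulfide isomerase and also a subunit of collagen prolyl hydroxylase, had 139, 158 and 260 RPKM and stayed just short of the rule with a log2 difference of 0.90.

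Pdia4, an isomerase with an additional catalytic domain, had 27.4, 30.2 and 48.9 RPKM. Pdia6 had 44.9, 56.7 and 61.3 RPKM, and most of its difference was already there at 6 h, with a ratio of 1.26 (1.17 to 1.37). From 6 h on its intervals overlapped. Ero1l encodes the oxidase that recharges the isomerases and had 4.36, 4.35 and 7.91 RPKM, with the dormant and reactivating libraries alike and the reactivated one above both. Dnajc10, a reductase that opens disulfide bonds of chains bound for degradation, had 15.5, 17.1 and 20.3 RPKM. Pdia5 had 4.39, 6.24 and 5.80 RPKM and its reactivated interval overlapped both others.

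Ero1lb, the second oxidase, was near the limit of detection with 0.40, 0.74 and 0.14 RPKM, from 24, 49 and 11 exon reads. It was left out of the counts of measured genes. The 7 measured disulfide genes had a median log2 difference of 0.73 at 12 h against dormancy, and all 7 lay above 0.

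The co-chaperones and small luminal proteins held 4 of the 6 genes past the rule. Manf encodes a small ER protein that binds BiP and can be secreted, and lies at chr9:106838312-106891979 (minus strand) in M21. The authors' model of the gene, on which its reads were counted, is 3152 bases long and so much shorter than that span. Manf had 34.6 (31.3 to 38.1), 44.0 (40.5 to 47.8) and 90.9 (86.3 to 95.7) RPKM in the dormant, reactivating and reactivated libraries. Each library stood above the one before, with a ratio of 2.63 (2.35 to 2.94) at 12 h against dormancy. It was the seventh of the 35 genes by level in the reactivated library, after the 6 large chaperones and isomerases. Sdf2l1, a subunit of the ERdj3 chaperone complex at chr16:17130138-17132383 (minus strand), had 5.79 (4.65 to 7.13), 9.55 (8.14 to 11.1) and 15.5 (13.9 to 17.3) RPKM. Its ratio at 12 h against dormancy was 2.68 (2.12 to 3.43), and at 6 h it was 1.65 (1.27 to 2.16), the highest 6 h ratio among the 34 genes. It rests on 89, 163 and 321 exon reads.

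Dnajb11 encodes ERdj3, a co-chaperone that hands chains to BiP, and lies at chr16:22857845-22879634 (plus strand). It had 16.3 (14.7 to 17.9), 16.4 (15.0 to 18.0) and 34.9 (32.9 to 36.9) RPKM in the dormant, reactivating and reactivated libraries. Like Hspa5 it was level at 6 h and apart at 12 h, where the ratio against dormancy was 2.15 (1.92 to 2.40). Creld2, a luminal protein at chr15:88819646-88826683 (plus strand) known as an ER stress target in mouse cells, had 16.8 (15.0 to 18.8), 21.5 (19.6 to 23.6) and 35.8 (33.6 to 38.2) RPKM. Its libraries did not overlap, and its 12 h ratio was 2.13 (1.88 to 2.43). Dnajb9 encodes ERdj4, a co-chaperone of BiP that represses IRE1, and it had 3.38, 3.32 and 6.86 RPKM. Its ratio at 12 h was 2.03 (1.59 to 2.62), and its log2 difference of 0.84 missed the rule because of the RPKM added. Dnajc3, the PERK inhibitor P58IPK, had 13.2, 12.1 and 18.2 RPKM. The median of the 6 genes was 1.05 at 12 h against dormancy. All 6 had intervals above dormancy without overlap, beside 26% of protein-coding genes.

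**Figure D2:**
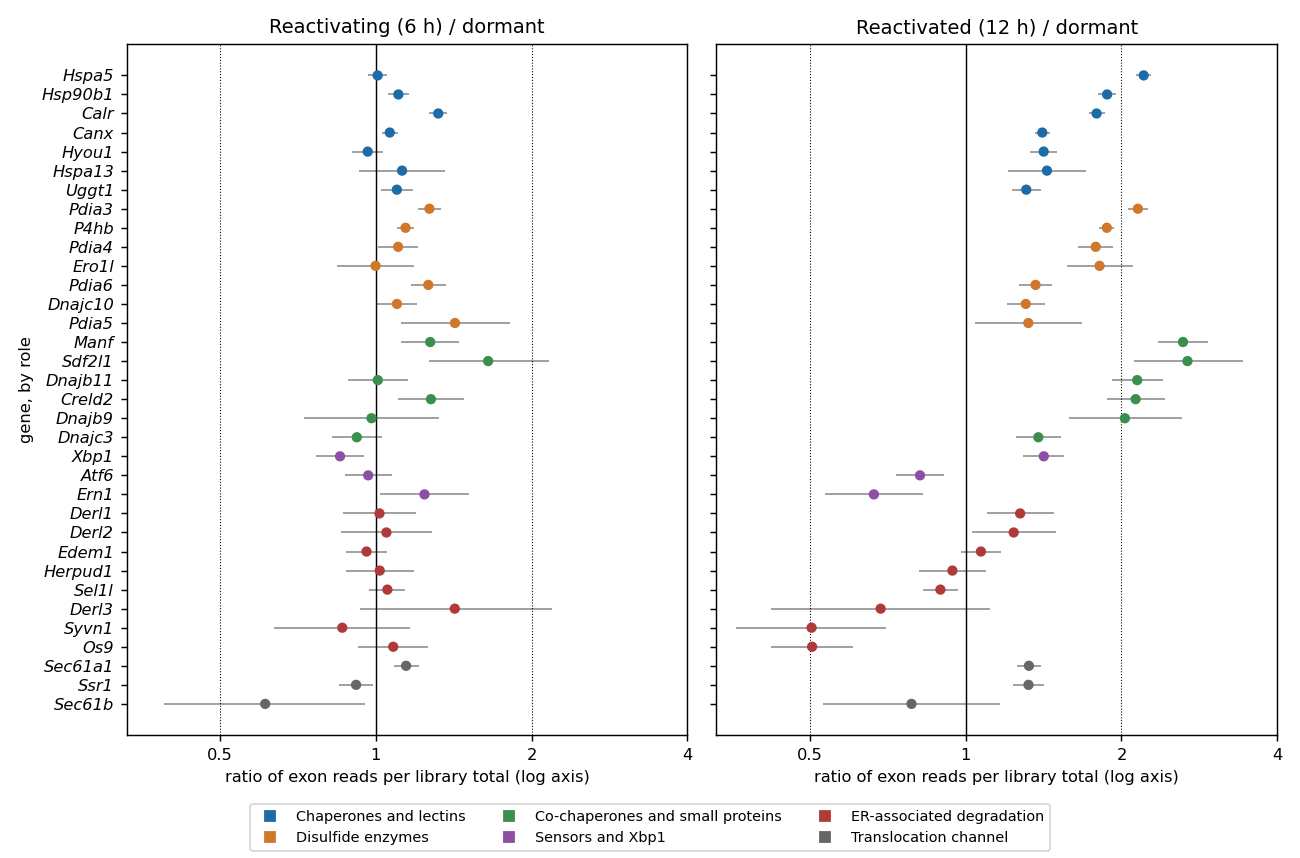
Ratio of exon reads per library total for the 34 measured genes on a log axis, reactivating (6 h) over dormant on the left and reactivated (12 h) over dormant on the right, coloured by role. Bars are 95% binomial intervals for counting error and dotted lines mark 0.5 and 2 times. On the left the points run between 0.61 for Sec61b and 1.65 for Sdf2l1, and on the right chaperones, disulfide enzymes and co-chaperones all lie above 1 while Syvn1 and Os9 lie near 0.5.

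The sensor genes and Xbp1 differed among themselves. Xbp1 encodes the transcription factor that IRE1 activates by splicing its mRNA, and it had 28.8 (26.8 to 31.0), 24.6 (22.8 to 26.5) and 40.8 (38.7 to 43.0) RPKM in the dormant, reactivating and reactivated libraries. It was lowest at 6 h and highest at 12 h, with ratios of 0.85 (0.77 to 0.95) and 1.42 (1.29 to 1.55) against dormancy. The tables count reads per gene and do not separate the spliced from the unspliced form, so the activity of IRE1 was not measured. Ern1, which encodes IRE1 itself, had 2.44 (2.10 to 2.83), 3.04 (2.67 to 3.44) and 1.63 (1.38 to 1.90) RPKM. Its reactivated library lay below both others, with a ratio of 0.54 (0.44 to 0.66) against the reactivating library. Atf6, a membrane-tethered transcription factor, had 6.54, 6.32 and 5.34 RPKM and a ratio of 0.82 (0.74 to 0.91) at 12 h against dormancy.

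Of the 8 genes of ER-associated degradation 0 passed the 2-fold rule in either direction, and they differed among themselves. Syvn1 and Sel1l encode the ubiquitin ligase of this route and its partner. Syvn1 had 2.15 (1.74 to 2.63), 1.85 (1.49 to 2.28) and 1.08 (0.832 to 1.39) RPKM in the dormant, reactivating and reactivated libraries, from 93, 89 and 63 reads. Its reactivated interval lay below both others, with a ratio of 0.50 (0.36 to 0.70) at 12 h against dormancy. Sel1l had 12.7, 13.4 and 11.4 RPKM, with a 12 h ratio of 0.89 (0.83 to 0.97). Os9 encodes a lectin that delivers glycoproteins to that ligase, and it had 8.62 (7.67 to 9.66), 9.32 (8.38 to 10.3) and 4.35 (3.78 to 4.996) RPKM. Its dormant and reactivating libraries overlapped and the reactivated one lay at 0.50 (0.42 to 0.61) of dormancy and at 0.47 (0.39 to 0.56) of the reactivating library.

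Herpud1, a membrane protein of the same complex and a known target of the unfolded protein response, had 12.4, 12.7 and 11.7 RPKM, and its 3 intervals overlapped. Edem1, which marks misfolded glycoproteins for removal, had 10.6, 10.2 and 11.3 RPKM, and its intervals overlapped between reactivated and dormant. The derlins, membrane proteins of the exit channel, differed among themselves. Derl1 had 6.44, 6.55 and 8.21 RPKM and Derl2 11.2, 11.7 and 13.8 RPKM, both highest in the reactivated library, while Derl3 had 2.06, 2.92 and 1.41 RPKM from 38, 60 and 35 reads. The 8 degradation genes had a median log2 difference of -0.11 at 12 h against dormancy, with 5 below 0 (4 with upper-quartile scaling, where Herpud1 moved above 0). By intervals without overlap, 1 was above dormancy and 3 below it, beside 26% and 34% of protein-coding genes.

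At the translocation channel, Sec61a1, its pore-forming subunit, had 53.0, 60.7 and 70.3 RPKM in the dormant, reactivating and reactivated libraries. Of its exon bases, 8.16% overlap an antisense gene. Ssr1, a subunit of the complex that helps chains through the channel, had 38.8, 35.5 and 51.3 RPKM. Both were highest in the reactivated library, with 12 h ratios of 1.33 (1.26 to 1.40) and 1.32 (1.24 to 1.41) against dormancy. Sec61b, a small subunit, had 7.22 (5.41 to 9.44), 4.41 (3.09 to 6.11) and 5.67 (4.29 to 7.37) RPKM from 53, 36 and 56 reads, and its intervals overlapped.

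Judged by counting error alone, most of these genes differed between the reactivated library and the others. At 12 h against dormancy, 23 of 34 genes had a higher interval without overlap and 5 a lower one, where 26% of protein-coding genes were higher and 34% lower by the same measure. Overlap depends on the number of reads, so genes with many reads stand apart at smaller differences. Canx, with 5706 dormant and 10788 reactivated exon reads, did so at a ratio of 1.41. The shares of protein-coding genes were not matched for level. At 6 h against dormancy 11 were higher and 1, Xbp1, lower, beside 20.2% and 9.91% of protein-coding genes. Between 12 h and 6 h, 22 were higher and 6 lower, beside 22.3% and 38%. Of the 35 genes 25 had their highest level in the reactivated library, 7 in the reactivating library and 3 in the dormant library, and 18 were higher at each later time. The 7 include Ero1lb, and the 3 were Atf6, Syvn1 and Sec61b. The share of all genes with each of these patterns was not computed.

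The sum over the 35 genes was 1149, 1300 and 1985 RPKM in the dormant, reactivating and reactivated libraries. In reads, they took 2981, 3302 and 4897 of every 1000000 reads of the library total. Calr, P4hb, Hspa5, Canx, Pdia3 and Hsp90b1 made up 61.7%, 63.3% and 67.0% of the summed RPKM. Summed by role, co-chaperones and small proteins had 89.96, 107 and 202 RPKM, chaperones and lectins 522, 591 and 929 RPKM, and disulfide enzymes 334, 399 and 616 RPKM. The degradation genes together had 66.2, 68.6 and 63.3 RPKM, so that their sum differed little between states.

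Reads in introns, which come largely from unspliced RNA, were counted in the same tables and set against the same library totals. At 12 h against dormancy, 13 of 32 genes with at least 20 intron reads in either library had an intron ratio above 1 with its interval and 3 had one below 1. Among 8796 protein-coding genes, 12.8% were above and 38.3% below. Set against total intron reads instead, 21 were above and 1 below. That total raises every ratio of a later library, since introns held a smaller share of reads there. The share of protein-coding genes was not computed under it. The median intron ratio of the 32 genes was 1.17, beside 0.869 over the protein-coding genes. The 3 below were Atf6, Ern1 and Sel1l. At 6 h against dormancy, 5 of 31 genes were above 1 and 3 below, beside 14.3% and 23.4% of protein-coding genes. Against total intron reads these counts were 10 and 1, with no such share computed. Between 12 h and 6 h, 13 of 31 were above and 2 below, beside 15.4% and 36% of protein-coding genes. Against total intron reads the counts there were 16 and 1, again with no share computed. Opposite-strand reads were above dormancy without overlap of intervals for 5 of 34 genes at 6 h and 8 of 34 at 12 h, beside 12.4% and 16.3% of protein-coding genes.

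Hspa5 had 77 intron reads in the dormant library, 132 in the reactivating library and 380 in the reactivated library. Its intron ratio against dormancy was 1.54 (1.16 to 2.07) at 6 h, when its exon ratio was 1.01, and 3.67 (2.87 to 4.75) at 12 h. Thus the intron reads were higher at 6 h while the exon reads were level. Dnajb9 had 8, 24 and 59 intron reads, with intron ratios of 2.70 (1.17 to 6.95) at 6 h and 5.49 (2.61 to 13.3) at 12 h, beside exon ratios of 0.98 and 2.03. In both genes the intron ratio at 12 h exceeded the exon ratio, with intervals that did not overlap for Hspa5 and overlapped by a little for Dnajb9.

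Other genes differed in how their intron and exon ratios compared. Hsp90b1 had 312 intron reads in dormancy, 329 at 6 h and 742 at 12 h, a 12 h ratio of 1.77 (1.55 to 2.03) beside an exon ratio of 1.88. Pdia3 had 276, 361 and 671, a 12 h ratio of 1.81 (1.57 to 2.09) beside 2.15. Manf had 32, 26 and 79, a ratio of 1.84 (1.20 to 2.86) beside 2.63. Creld2 and Dnajb11 passed the size rule on exon reads, yet their intron ratios at 12 h were 1.17 (0.87 to 1.59) and 1.20 (0.96 to 1.503), with 1 inside the interval. Calr had an intron ratio of 1.22 (1.03 to 1.43) beside 1.79. Sel1l had 200, 158 and 165 intron reads, with a 12 h ratio of 0.61 (0.50 to 0.76) that lay below its exon ratio of 0.89. Hyou1 and Ssr1 had intron ratios of 1.75 (1.39 to 2.21) and 1.66 (1.26 to 2.21) at 12 h, with intervals that overlapped those of their exon ratios, 1.41 and 1.32. At 6 h the intron ratio of Ssr1 was 1.36 (1.01 to 1.84) and its exon ratio 0.92 (0.85 to 0.99), on opposite sides of 1. Introns held 11.1%, 10.2% and 8.45% of the intron and exon reads of all 35 genes together, against 27.7%, 25.1% and 23.5% over all genes of the tables.

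**Figure D3:**
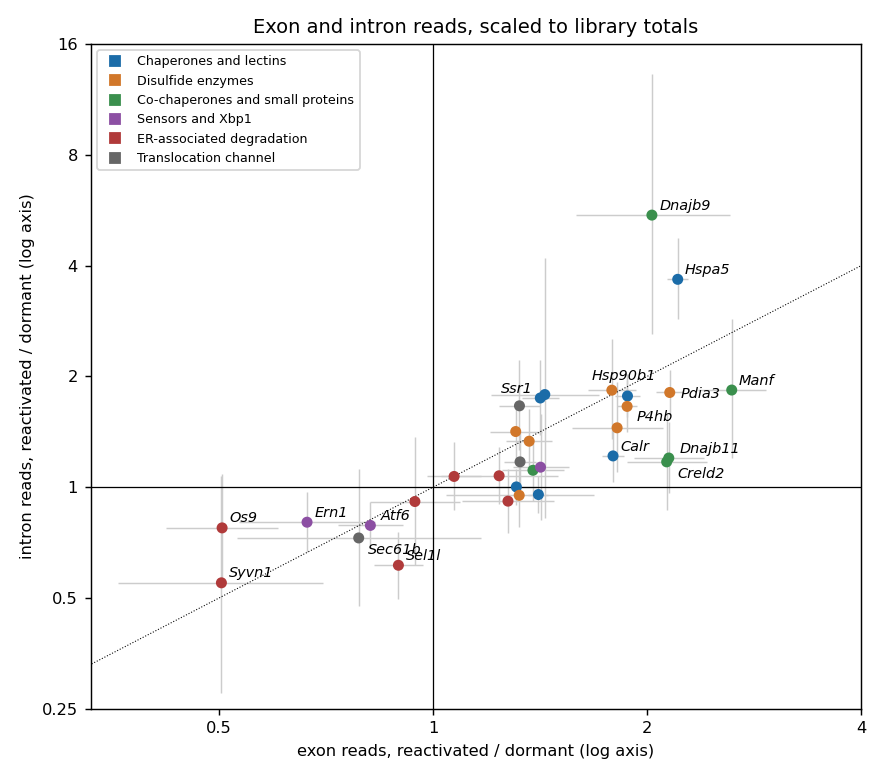
Intron read ratio against exon read ratio, reactivated over dormant, both scaled to library totals and on log axes, for the 32 genes with at least 20 intron reads in either library, coloured by role. Bars are 95% binomial intervals for counting error, and the dotted line marks equal ratios. Hspa5 (3.67 for introns, 2.21 for exons) and Dnajb9 (5.49 and 2.03) lie above the line, and Calr, Dnajb11 and Creld2 below it.

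The rest of the pathway was read from lists of its other genes, 172 in the tables, of which 155 were measured at 12 h against dormancy. Of these, 5 passed the rule upwards and 4 downwards, and their median log2 difference was 0.08. The 24 other genes of unfolded protein response signalling had 0 higher and 3 lower, with a median of -0.12. Eif2ak3, which encodes PERK, had 18.9, 19.9 and 4.15 RPKM in the dormant, reactivating and reactivated libraries, and its reactivated library stood far below both others with a ratio of 0.22 (0.19 to 0.25) against dormancy. Of genes around PERK, Atf4, the transcription factor whose translation PERK favours, had 141, 129 and 115 RPKM, and Ppp1r15a, which restarts translation, had 17.7, 19.2 and 10.2 RPKM. Trib3, a target of that branch, had 2.47, 1.32 and 1.20 RPKM, from 69, 41 and 45 reads. Ddit3, which encodes the stress factor CHOP, had a 12 h ratio of 0.36 (0.29 to 0.44), and Nupr1, a stress-induced nuclear protein, one of 0.13 (0.11 to 0.16).

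In the list of other ER folding genes 0 of 28 passed the rule against dormancy at 12 h, with a median of 0.17. Sil1, another nucleotide exchange factor of BiP, was lower at 12 h than at 6 h, with 7.14, 8.13 and 3.14 RPKM in the dormant, reactivating and reactivated libraries. The 29 other degradation genes had 0 past the rule in either direction and a median of -0.11. The 36 genes of translocation and glycosylation had 2 higher and a median of 0.32. These were Ssr4, of the same complex as Ssr1, with 41.0, 69.6 and 85.0 RPKM, and Spcs3, of the signal peptidase, with 8.38, 6.38 and 21.8 RPKM. Ssr4 was already above dormancy at 6 h and Spcs3 was not.

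Among 38 genes of transport between ER and Golgi, 3 were higher and 1 lower at 12 h against dormancy, with a median of 0.17. Sar1b, the small GTPase of the COPII coat, had 13.9, 19.8 and 34.0 RPKM in the dormant, reactivating and reactivated libraries. Kdelr2, a receptor that returns chaperones such as BiP from the Golgi, had 20.6, 23.2 and 42.9 RPKM. Sec31b, a coat subunit, was highest at 6 h, with a log2 difference of 2.68 then and 1.16 at 12 h. Sec16a, which organises the exit sites, had 11.8, 8.40 and 4.88 RPKM and was lower at each step.

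Chaperones outside the ER and targets of ATF4 were read in the same way. Of 42 chaperones of the cytosol and mitochondria, 9 were higher and 0 lower at 12 h against dormancy, with a median of 0.62. Hsph1, a cytosolic Hsp110, had the largest difference there, with 20.2, 24.7 and 94.05 RPKM in the dormant, reactivating and reactivated libraries. Of 26 ATF4 targets and tRNA synthetases 2 were higher, Psat1 and Psph of serine synthesis, and 0 lower, with a median of 0.35. Psat1 had 10.3, 9.47 and 35.04 RPKM. The difference between these lists and the ER genes was not tested.

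**Figure D4:**
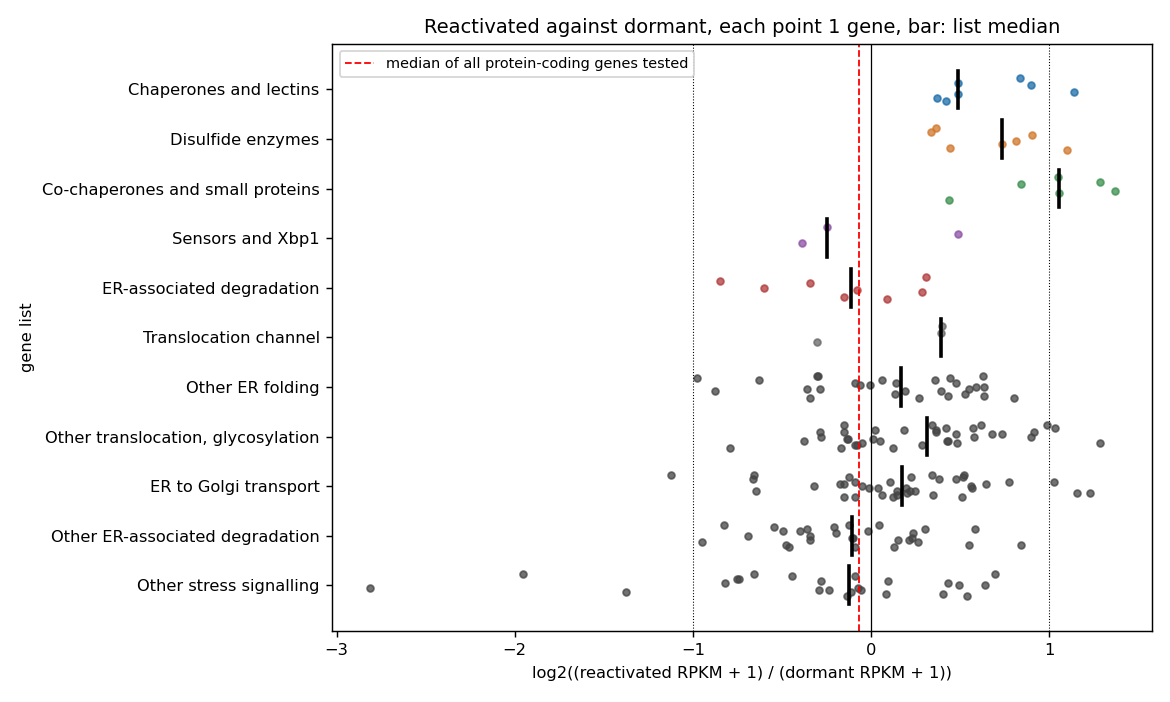
Log2 difference in RPKM (1 RPKM added to each), reactivated over dormant, for each measured gene of the 6 role groups and of 5 other lists of the pathway, 1 point a gene with a bar for the median of the list. Dotted lines mark 2 times in each direction and the dashed red line the median of all protein-coding genes, -0.07. The co-chaperones (median 1.05) lie to the right of the degradation genes (median -0.11), and the signalling genes reach furthest left with Nupr1 at -2.81.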

How the data were processed

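The study sequenced ribosome-depleted total RNA of pooled blastocysts, 1 library per state, as 50 bp single-end SOLiD reads, per the labels' protocols. The authors deposited read counts per gene, split per the file headers into exon, intron, junction and opposite-strand reads. The same tables hold the RPKM the authors computed, per the file headers. The build is GRCm38, per the submitters' processing notes. The aligner, the counter and the authors' gene models were not given in the sources used here.

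Levels are the deposited RPKM, and differences are log2 of RPKM with a pseudocount of 1, which understates changes of low genes. The size rule was applied to all 31510 genes. The library totals implied by RPKM and exon counts scaled the exon and intron ratios. Poisson intervals on counts and Clopper-Pearson intervals on ratios (95%) cover counting error only, and reads are not independent molecules. A count of 0 over 1 kb of exon would allow up to 0.212 RPKM in the dormant, 0.191 in the reactivating and 0.158 in the reactivated library. Coordinates are from GENCODE M21, which held 84.7% of the gene IDs, and promoters from RefSeq. Overlaps and shared stretches of 50 bases were counted in M21, not in the authors' annotation.

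The genes and the lists were chosen with earlier results of these data known. Of other lists, the genes named passed the size rule with at least 5 RPKM, up to 4 per list and comparison, besides Ddit3, Atf4, Eif2ak3, Ppp1r15a and Trib3. Alternatives changed the pseudocount, the minimum level, the scaling, the size of change and the total for introns. The rule was tested on simulated counts with counting error only, in which genes of at least 5 RPKM were raised or lowered 4 times. That does not cover differences near 2 times or variation between pools. Python 3.11.15, pandas 2.3.3, numpy 2.4.6, scipy 1.17.1 and matplotlib 3.10.9 were used.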

Additional observations from a re-analysis of the deposited data

Results flagged for a closer look

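Reads on the opposite strand of a gene enter no level given above. For 10 of the 35 genes they were above dormancy in a later library by more than counting error, given per 1000000 reads of the library total. These were 5 of the 34 measured genes at 6 h and 8 of 34 at 12 h, where 12.4% and 16.3% of protein-coding genes did the same, so the counts were near the background. Atf6 had 2.93 in the reactivating and 5.06 in the reactivated library, against 1.13 in the dormant library. Ern1 had 2.55 and 2.05, against 0.708, and Pdia5 had 4.78 and 4.32, against 2.27. In these 3 genes both later libraries lay above the dormant one. In the reactivating library Sel1l had 1.78, against 0.354, and Edem1 1.72, against 0.283. In the reactivated library Hspa13 had 0.896 and Pdia6 1.05, both against 0.0708 in the dormant library. In the reactivated library Os9 had 1.48, against 0.283, and Sec61a1 2.05, against 0.567. Derl3 had 0.790 in the reactivated library, from 15 reads, against 0 reads in the dormant library. Over all genes of the tables, opposite-strand reads were 5.46 in the reactivated and 5.35 in the reactivating library per 100 sense reads, against 4.26 in the dormant library. The part of that shift in these values was not tested.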

How the results depend on the processing

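Of 630 values of single genes under 6 alternatives, 573 moved by less than counting error or not at all, and 57 moved by more. The 2 alternatives that changed only the minimum level cannot move a single value, so part of the 573 was fixed in advance. Of the differences past the rule 0 changed sign, but these were at least 1 on the log2 scale, so a change of sign was unlikely from the start. The 6 genes higher at 12 h against dormancy passed under each of 8 alternatives, with Dnajb9 added at a pseudocount of 0.1. The smaller pseudocount, the smaller step and either change of the minimum level could not have dropped them. Only CPM, the 2 other scalings and the demand for intervals without overlap could have done so. A step of 1.5 times gave 1 higher and 1 lower at 6 h against dormancy, 12 and 2 at 12 h against dormancy, and 12 and 3 at 12 h against 6 h. At 12 h against 6 h, 2 genes were lower with a pseudocount of 0.1 (Derl3 and Os9) and 2 by CPM (Ero1lb and Os9). By CPM 2 genes were higher there, without Manf, and with a pseudocount of 0.1 or upper-quartile scaling Dnajb9 joined the 3 higher genes. In that comparison the median was 0.50 with upper-quartile scaling. Intron ratios scaled to total intron reads instead gave 10 above and 1 below 1 at 6 h against dormancy, 21 and 1 at 12 h against dormancy, and 1 below at 12 h against 6 h. The share of reads in introns was lower in the later libraries, which raises every ratio under that total. Scaling to exon reads, chosen after the data were seen, kept these counts within 1.5 times. No paired analysis was possible because each state is 1 library and the labels give no replicate numbers. For Derl3, Syvn1, Sec61b and Ero1lb, fewer than 100 reads a library limit the precision.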
